A study of Mus musculus with 18 samples.

Results

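Splicing factors and related RNA-binding proteins were followed through their own mRNAs, as the 122 protein-coding genes of 21013 in the mouse annotation whose symbols begin with Srsf, Hnrnp, Sf3, Snrp, Prpf or U2af, or with Ddx or Dhx and a digit. Of these genes, 49 carried at least 1 m5C site in at least 1 library and 73 carried none. They held 460 of the 18059 sites found in exons of protein-coding genes, and 25890 sites were listed in all. The choice rests on gene names and used no measured value, though earlier results of these data were known when it was made. It takes in helicases with other known tasks, among them Ddx3x in translation and Ddx10 in ribosome assembly, so the set is described as splicing and helicase genes rather than as splicing factors alone.

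5-methylcytosine (m5C) was read by bisulfite sequencing of rRNA-depleted RNA, in which unmethylated cytosine is converted and m5C is still read as cytosine. The labels name cortical neurons of C57BL/6 mice at embryonic day 18, in 3 groups with 3 libraries each. Control neurons had no deprivation, OGD/R 1.5 h neurons were kept without glucose and in low oxygen for 1.5 h, and OGD/R 3 h neurons for 3 h; both were then returned to normal medium for 24 h. No transgene or deletion is named for any group, and the gas mixture is stated as 94% N2, 21% O2 and 5% CO2, which sums to 120%, so the oxygen level of the deprivation is uncertain. The 9 mock libraries were not analysed here.

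Pre-mRNA splicing is carried out by small nuclear ribonucleoproteins. Snrp genes encode proteins of these particles, the Sm proteins among them, and Sf3 genes encode the SF3a and SF3b subunits of U2. Some of the PRP factors (Prpf genes) also belong to these particles. The U2af proteins mark the 3′ splice site, SR proteins (Srsf genes) mostly promote the use of exons, and hnRNP proteins (Hnrnp genes) coat nascent transcripts and often oppose it. DEAD-box (Ddx) and DEAH-box (Dhx) helicases remodel RNA and RNA-protein complexes in splicing, export, translation and ribosome assembly.

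Each library is a list of called sites with a score, which rises with the coverage and with the methylation level of a site together. The 2 cannot be separated in it. Read depth is unknown, so the number of sites stands in its place. Control libraries listed 5907 to 6254 sites, OGD/R 1.5 h libraries 5423 to 5745 and OGD/R 3 h libraries 7266 to 7772. Where the coverage of replicates could be compared, in control and OGD/R 3 h, it differed by less than the sampling noise. Each group's 3 libraries were for this reason taken as 1 sample, SDs describe the spread between sequencing libraries, and no p-value is given. A site is called only where enough reads cover it, so a gene without a site may lack reads as well as m5C. A change in sites, a change in the amount of an mRNA and a change in the cells that supply it cannot be told apart.

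The labelled cell type was looked for in the same lists. None of 14 neuron markers, Tubb3, Map2 and Snap25 among them, had a site in any library, whereas all 10 markers of intestinal epithelium, such as Vil1 and Epcam, had one. Over all protein-coding genes, 2607 of 21013 had a site. The marker lists were chosen with earlier results of these data known, so these counts are descriptive. The intestinal list summed to 45 to 54 sites per library in control, 32 to 36 after OGD/R 1.5 h and 79 to 84 after OGD/R 3 h. Of 6 erythroid and 6 neutrophil markers, 2 and 3 had sites, and they summed to 31 and 21 sites in every OGD/R 3 h library and to 0 in every other library. Smooth muscle markers had sites in 4 of 5 genes, with 7 to 15 sites per library, and astrocyte markers in 1 of 4. The part of these differences in the results for splicing and helicase genes was not tested.

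Selected sites are shown first, with 10 nt on either side in the sense of the mRNA and the called cytosine in capitals. They are the 2 sites called in all 9 libraries and, among sites called in all 3 libraries of a group, that with the highest mean score, which in control and in OGD/R 1.5 h was the same cytosine of Prpf38b. Positions are those of mm10 and sequences are from the RefSeq copy of that build.
Hnrnpab, 5′ untranslated region, exon 1, chr11:51606753-51606773, minus strand: tagtcagtggCtgcggacgag
Ddx17, coding sequence, exon 12, chr15:79531755-79531775, minus strand: ggctagagagCtgatcaaagt
Prpf38b, coding sequence, exon 6, chr3:108904404-108904424, minus strand: gaggcagtgaCcgagaaaggg
Hnrnpu, coding sequence, exon 1, chr1:178337450-178337470, minus strand: catggatcgaCtccaggccgc

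The Hnrnpab site lay 120 nt before the first base of the start codon. Its scores were 46, 13 and 42 in control, 60, 58 and 110 after OGD/R 1.5 h, and 32, 128 and 23 after OGD/R 3 h. Every OGD/R 1.5 h score was above every control score, while OGD/R 3 h overlapped with both other groups. The Ddx17 site scored 16, 6 and 32 in control, 9, 61 and 171 after OGD/R 1.5 h, and 44, 57 and 28 after OGD/R 3 h. At this site control and OGD/R 1.5 h overlapped, as did OGD/R 3 h and control. The Prpf38b site scored 274, 214 and 88 in control and 110, 124 and 442 after OGD/R 1.5 h, and was listed in no OGD/R 3 h library. The Hnrnpu site had the reverse pattern, with scores of 110, 87 and 69 after OGD/R 3 h and no call in the other 6 libraries. It is one of 3 sites of the set that begin the sequence CTCCA, the motif known for the methyltransferase NSUN6. Scores of sites called in all 3 control and all 3 OGD/R 3 h libraries could be compared at 7 sites of the set. At 0 of them was every OGD/R 3 h library above or below every control library, against 10.8% above and 15.6% below over the 250 such sites of all mRNAs.

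Most sites of the set sat in 4 mRNAs, in which neighbouring cytosines were often called together. To show this, the 30-nt stretch with most called cytosines is given for each of these genes, which were picked after their counts were known. Capitals mark every cytosine called in at least 1 of the 9 libraries.
Hnrnpu, exon 10, coding sequence, chr1:178331194-178331223, minus strand: CCtgtttgCaggCttCCagCggaaagCtgt
Hnrnpul2, exon 7, coding sequence, chr19:8825079-8825108, plus strand: CgtgtgCggaCtgcagtcCCtCCCaagaCc
Ddx17, exon 9, coding sequence, chr15:79537443-79537472, minus strand: CgCtgtgatgaCCtcaCaCgaagaatgCgC
Hnrnpab, exon 1, before the start codon, chr11:51606701-51606730, minus strand: CgCggCCaagccCgcgCgtCgcCttCtgcg

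All 8 cytosines of the Hnrnpu stretch were called in some library, 9 of 12 in Hnrnpul2, 8 of 9 in Ddx17 and 9 of 14 in Hnrnpab. No library held all of them. The Hnrnpu stretch had 1 called cytosine in each control library and 1, 2 and 4 in the OGD/R 3 h libraries. The Ddx17 stretch had 3, 2 and 2 in control, 2, 3 and 2 after OGD/R 1.5 h, and 1, 0 and 1 after OGD/R 3 h.

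Control libraries held 101, 97 and 81 sites in splicing and helicase mRNAs, OGD/R 1.5 h libraries 110, 98 and 116, and OGD/R 3 h libraries 116, 125 and 120. The means were 93 ± 10.6, 108 ± 9.17 and 120.3 ± 4.51 (SD, 3 libraries). Every OGD/R 3 h library was above every control library, with a log2 ratio of 0.37, while OGD/R 1.5 h overlapped with both. Sites of all mRNAs also differed, with a log2 ratio of 0.32 for OGD/R 3 h and -0.13 for OGD/R 1.5 h against control.

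Relative to the library, the order was another. The set held 2.60%, 2.34% and 2.13% of the mRNA sites of the control libraries and 2.20%, 2.64% and 2.53% of those of OGD/R 3 h, which overlapped. In OGD/R 1.5 h it held 3.14%, 2.76% and 3.09%, above every library of control and of OGD/R 3 h. The difference of means was 0.64 percentage points against control and -0.54 for OGD/R 3 h against OGD/R 1.5 h. The comparisons of the 3 groups share libraries and are not independent of each other.

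**Figure D1:**
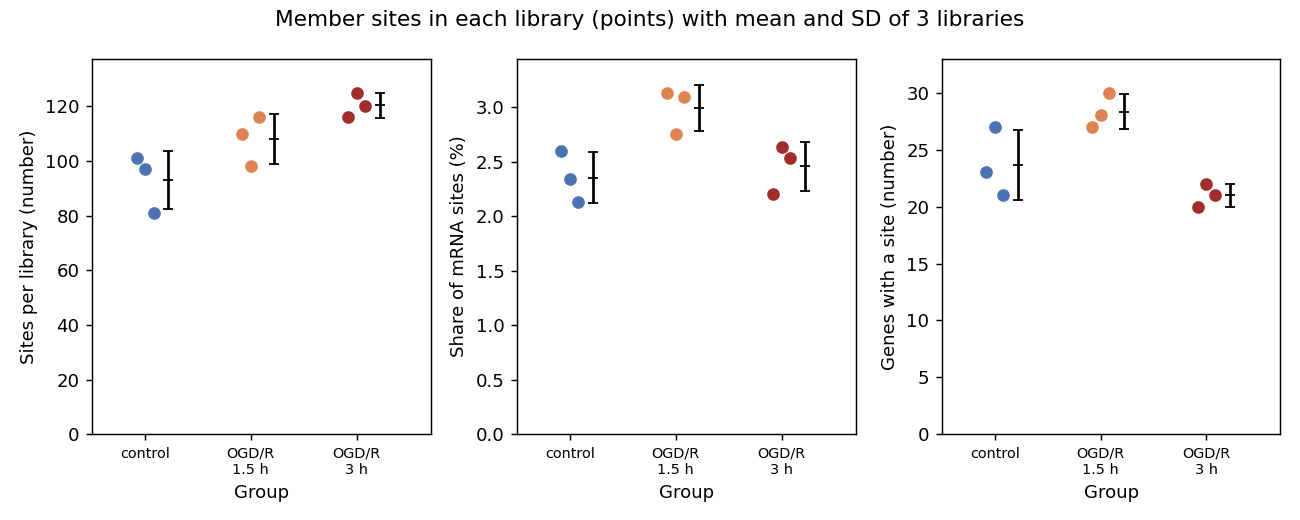
Sites in splicing and helicase mRNAs per library (left), their share of the library's mRNA sites in percent (middle) and the number of genes of the set with a site (right), by group; points are libraries, and bars give the mean and SD of 3 libraries. OGD/R 3 h had most sites, at 116 to 125 per library, and OGD/R 1.5 h the highest share and the most genes.

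The number of genes with a site was 23, 27 and 21 in control, 27, 28 and 30 after OGD/R 1.5 h, and 20, 22 and 21 after OGD/R 3 h. OGD/R 1.5 h met control only at 27 genes, and every OGD/R 3 h library was below every OGD/R 1.5 h library. Over the union of the libraries, 30 of 122 genes (24.6%) had a site in control, 37 (30.3%) in OGD/R 1.5 h and 28 (23.0%) in OGD/R 3 h. Over all protein-coding genes the shares were 8.62%, 8.31% and 6.9%. Expression was not held for these samples, so this contrast is not one between equally abundant mRNAs.

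By family, sites were found in 7 of 11 Srsf genes, 13 of 21 Hnrnp genes, 17 of 37 Ddx genes, 5 of 16 Dhx genes, 3 of 9 Sf3 genes, 2 of 12 Snrp genes, 2 of 13 Prpf genes and 0 of 3 U2af genes. Hnrnp genes held 285 of the 460 sites and Ddx genes 109. The Srsf genes followed with 34 sites, Dhx genes with 11, Sf3 genes with 9, Prpf genes with 7 and Snrp genes with 5. Of the Hnrnp sites, 99 lay in Hnrnpu, 77 in Hnrnpul2 and 44 in Hnrnpab, and of the Ddx sites 59 lay in Ddx17.

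Hnrnp mRNAs held 53.0 ± 5.57 sites per library in control, 66.3 ± 2.89 after OGD/R 1.5 h and 77.0 ± 4.36 after OGD/R 3 h (SD, 3 libraries), and the 3 groups did not overlap. Per 1000 mRNA sites of the library they held 13.5, 18.4 and 15.7, so that OGD/R 3 h then overlapped with control and lay below OGD/R 1.5 h. Ddx mRNAs held 26.3 ± 5.69, 23.7 ± 4.04 and 34.0 ± 1.00, and every OGD/R 3 h library was above every other library by count, while the groups overlapped at 6.65, 6.55 and 6.94 per 1000 mRNA sites. Dhx mRNAs held 3.67 ± 1.15 and 4.67 ± 1.15 sites in control and OGD/R 1.5 h and were listed in no OGD/R 3 h library. Srsf mRNAs differed little, at 6.67 ± 1.53, 7.33 ± 2.52 and 6.33 ± 1.53, and their libraries overlapped.

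**Figure D2:**
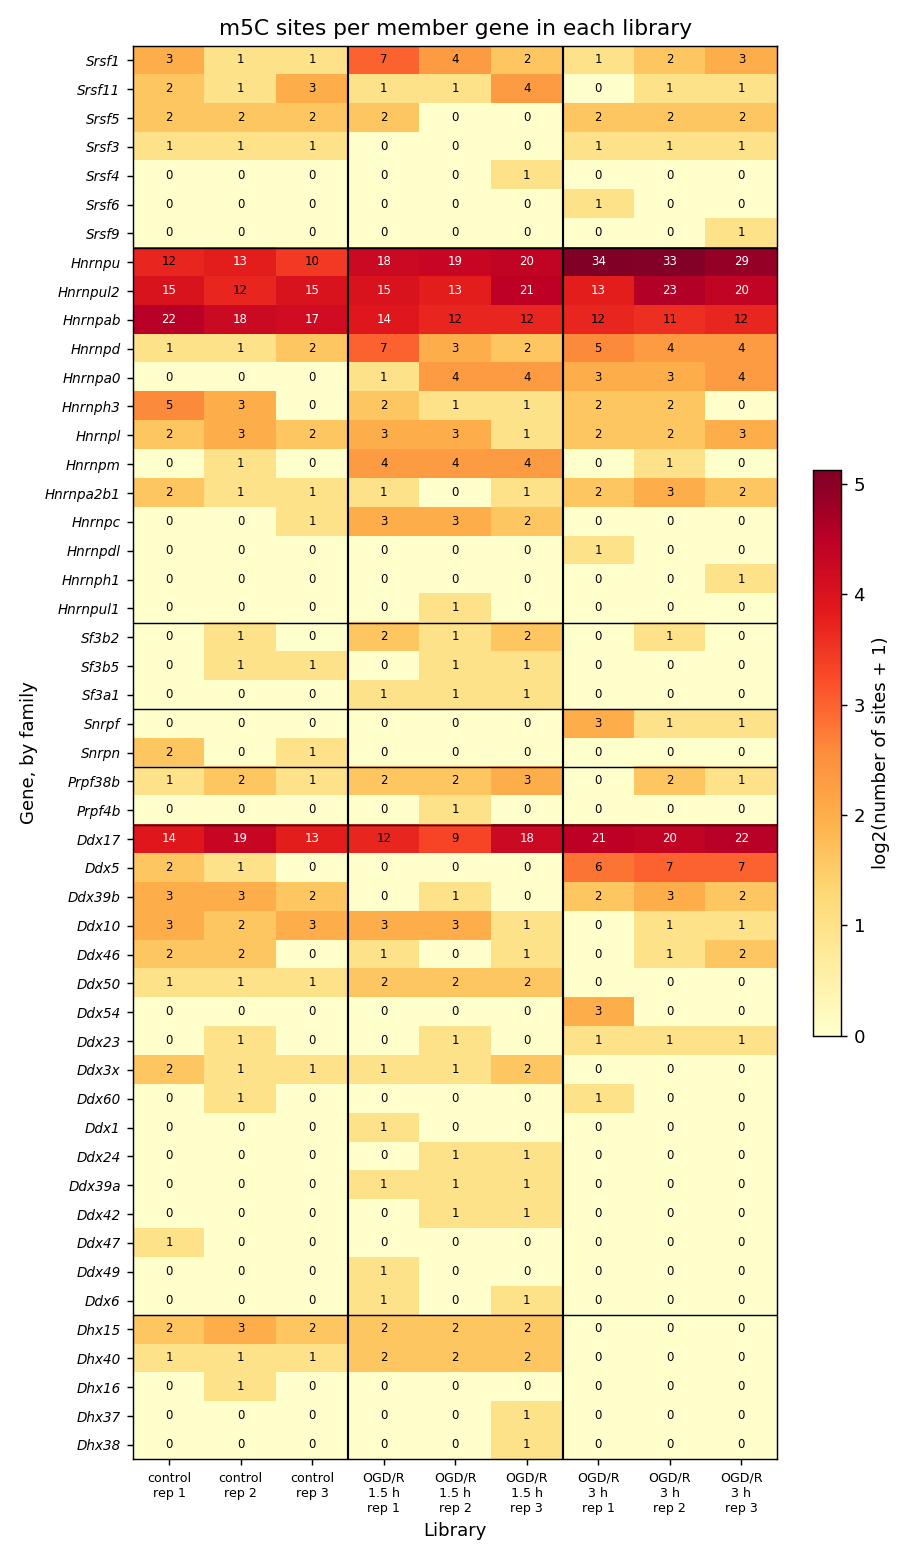
Number of m5C sites of each of the 49 genes with a site (rows, ordered by family and by total) in each of the 9 libraries (columns); the number is printed in each cell and the colour gives log2 of the number plus 1. Hnrnpu, Hnrnpul2, Hnrnpab and Ddx17 stand out in all 9 libraries, and the Dhx rows are at 0 after OGD/R 3 h.

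Hnrnpu, whose protein binds nascent RNA and nuclear scaffold DNA, carried the most sites, 99 distinct ones (chr1:178321108-178338891, minus strand). It had 12, 13 and 10 sites in control, 18, 19 and 20 after OGD/R 1.5 h, and 34, 33 and 29 after OGD/R 3 h. The 3 groups did not overlap, and the means were 11.7 ± 1.53, 19.0 ± 1.00 and 32.0 ± 2.65 (SD, 3 libraries). Per 1000 mRNA sites it had 2.95, 5.27 and 6.51, again with no overlap. Of the 99 sites, 90 lay in the coding sequence away from both codons, where 20.3% of the cytosines were called in some library. Control called 4.28% of these coding cytosines, OGD/R 1.5 h 8.78%, and OGD/R 3 h reached 14.2%. The 391 cytosines of its 3′ untranslated region held only 2 sites.

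The exons of Hnrnpu differed in how far the groups parted. Exon 1 held 6, 2 and 2 sites in control and 11, 9 and 8 after OGD/R 3 h. Exon 9 held none in control, 1, 1 and 0 after OGD/R 1.5 h, and 2, 8 and 0 after OGD/R 3 h. Exon 11 held 2, 4 and 7 after OGD/R 1.5 h and 1, 6 and 0 after OGD/R 3 h, so that 1 library can supply most of an exon's sites. Exon 2 overlapped between control, at 1, 4 and 5, and OGD/R 3 h, at 4, 3 and 4. Hnrnpu had no site called in all 9 libraries, and 5 of its 99 sites were found in all 3 groups. Within groups, 3 of 23 control sites, 5 of 42 OGD/R 1.5 h sites and 9 of 68 OGD/R 3 h sites were called in all 3 libraries. For the whole set these shares were 29.3%, 17.9% and 25.2%. Libraries with like counts thus mostly called different cytosines of Hnrnpu.

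Hnrnpul2, a relative of Hnrnpu, had 77 distinct sites (chr19:8819401-8834143, plus strand). Its libraries held 15, 12 and 15 sites in control, 15, 13 and 21 after OGD/R 1.5 h, and 13, 23 and 20 after OGD/R 3 h, and all groups overlapped. The coding sequence held 71 of the sites, which is 16.1% of its cytosines. Exon 7 alone held 24, with 7, 4 and 7 in control, 1, 0 and 4 after OGD/R 1.5 h, and 9, 11 and 7 after OGD/R 3 h. Exon 3 had none in control and 3, 1 and 3 after OGD/R 1.5 h. The totals of the groups overlapped while those of exon 3 did not overlap between control and OGD/R 1.5 h.

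Ddx17, a DEAD-box helicase that acts in splicing and as a transcriptional coregulator, had 59 distinct sites, 50 of them in the coding sequence. It held 14, 19 and 13 sites in control, 12, 9 and 18 after OGD/R 1.5 h, and 21, 20 and 22 after OGD/R 3 h. OGD/R 3 h was above every library of both other groups, while control and OGD/R 1.5 h overlapped. Per 1000 mRNA sites the groups overlapped throughout, at 3.87, 3.58 and 4.28. Exon 2 held 2, 3 and 2 sites in control and 6, 5 and 3 after OGD/R 3 h, and exon 10 held 0, 1 and 1 against 3, 4 and 3. Exon 9 ran the other way, with 3, 3 and 2 in control and 1, 2 and 1 after OGD/R 3 h.

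Hnrnpab, an hnRNP protein with a part in mRNA transport, differed from these 3 in place and in direction. It held 22, 18 and 17 sites in control, 14, 12 and 12 after OGD/R 1.5 h, and 12, 11 and 12 after OGD/R 3 h, and control was above every library of both deprived groups. This order held per 1000 mRNA sites, at 4.83, 3.52 and 2.38, where OGD/R 3 h was also below OGD/R 1.5 h. Of its 44 distinct sites, 17 lay in the 5′ untranslated region, where 51.5% of the cytosines were called in some library, and 20 within 100 nt of the start codon. Exon 1 held 29 sites, with 14, 12 and 11 in control, 10, 8 and 8 after OGD/R 1.5 h, and 9 in each OGD/R 3 h library. Exon 2 held 7, 6 and 5 in control, 4 in each OGD/R 1.5 h library and 3, 2 and 3 after OGD/R 3 h.

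**Figure D3:**
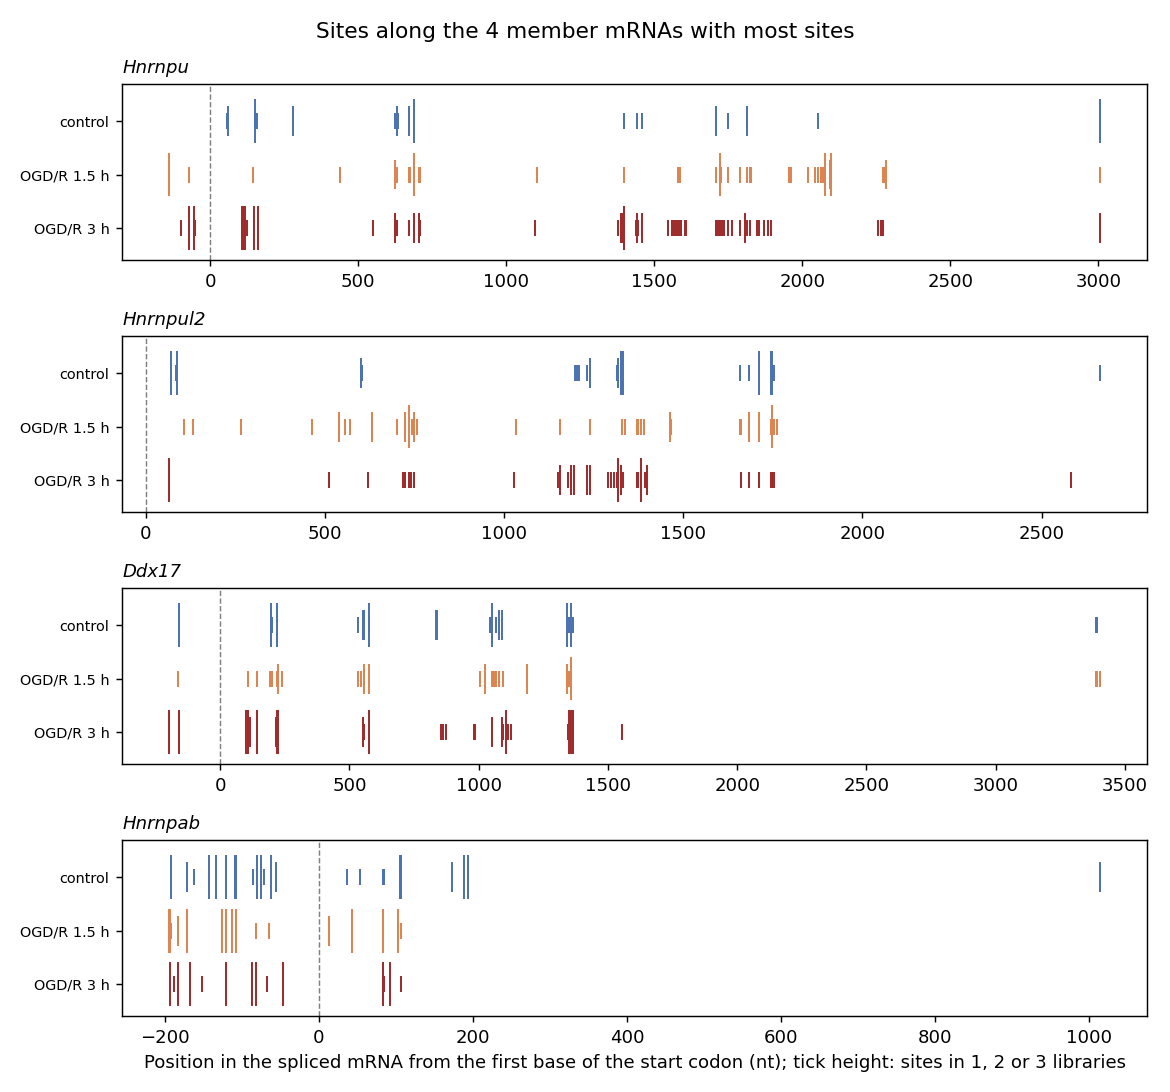
Positions of the sites along the spliced mRNAs of Hnrnpu, Hnrnpul2, Ddx17 and Hnrnpab, in nt from the first base of the start codon (dashed line), with 1 row per group; the height of a tick gives whether 1, 2 or 3 libraries of the group called the site. Sites of the first 3 mRNAs lie in groups along the coding sequence and those of Hnrnpab lie around the start codon.

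These 4 mRNAs held 279 of the 460 sites (60.7%). Their share of the set's sites per library was 64.7% ± 2.85 in control, 56.3% ± 4.25 after OGD/R 1.5 h and 69.2% ± 0.324 after OGD/R 3 h (SD, 3 libraries). The other members held 38, 35 and 26 sites in control, 51, 45 and 45 after OGD/R 1.5 h, and 36, 38 and 37 after OGD/R 3 h. Without the 4 genes, therefore, OGD/R 1.5 h was the highest group, above every library of the other two, and control and OGD/R 3 h overlapped. Of the 45 other genes, 18 carried a single site, 22 carried 2 to 9 and 5 carried 10 or more.

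Ddx5, the close relative of Ddx17, was listed mostly in OGD/R 3 h. It held 2, 1 and 0 sites in control, none after OGD/R 1.5 h, and 6, 7 and 7 after OGD/R 3 h. Its 11 distinct sites lay in the 5′ untranslated region (4), around the start codon (4) and in the coding sequence (3), and 8 of them in exon 2. The pair share a function and differ in number, since Ddx17 held at least 9 sites in every library.

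Hnrnpa0 and Hnrnpd, both binders of AU-rich mRNA elements, were higher in OGD/R 3 h than in control without overlap. Hnrnpa0 had no site in control, 1, 4 and 4 after OGD/R 1.5 h, and 3, 3 and 4 after OGD/R 3 h. Hnrnpd had 1, 1 and 2 in control, 7, 3 and 2 after OGD/R 1.5 h, and 5, 4 and 4 after OGD/R 3 h. All 12 distinct sites of Hnrnpd lay in exon 1 of 9. Hnrnpa0, whose transcript has 1 exon, had 10 distinct sites. Snrpf, a protein of the Sm ring, was listed in OGD/R 3 h only, with 3, 1 and 1 sites.

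In 6 of 37 members (16.2%) every OGD/R 3 h library held fewer sites than every control library, near the 18.7% of all genes. Apart from Hnrnpab these were helicases with few sites, while the helicases Ddx17 and Ddx5 were higher by count. Dhx15, which takes part in disassembly of the spliceosome, had 2, 3 and 2 sites in control, 2 in each OGD/R 1.5 h library and none after OGD/R 3 h. None of the Dhx15 cytosines called in control was called in OGD/R 1.5 h. Ddx3x had 2, 1 and 1 in control, 1, 1 and 2 after OGD/R 1.5 h and none after OGD/R 3 h. Ddx10 was low rather than absent, with 3, 2 and 3 in control, 3, 3 and 1 after OGD/R 1.5 h, and 0, 1 and 1 after OGD/R 3 h. Dhx40 and Ddx50 had the same counts as each other, 1 in each control library, 2 in each OGD/R 1.5 h library and 0 in each OGD/R 3 h library. In both genes the control and OGD/R 1.5 h calls fell on different cytosines.

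A further group stood out in OGD/R 1.5 h only. Hnrnpm, which regulates alternative exons, had 0, 1 and 0 sites in control, 4 in each OGD/R 1.5 h library, and 0, 1 and 0 after OGD/R 3 h. Hnrnpc, a binder of uridine tracts in introns, had 0, 0 and 1, then 3, 3 and 2, then none. Sf3a1, a subunit of U2, and Ddx39a each had 1 site in every OGD/R 1.5 h library and none elsewhere. The reverse was seen in Ddx39b, the helicase of splicing and export of which Ddx39a is a paralog, with 3, 3 and 2 sites in control, 0, 1 and 0 after OGD/R 1.5 h, and 2, 3 and 2 after OGD/R 3 h. Srsf3 likewise had 1 site in each control and each OGD/R 3 h library and none after OGD/R 1.5 h. The Srsf3 cytosine called in control was not the one called in OGD/R 3 h.

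Srsf1, the SR protein with most sites, had 15 distinct sites, 13 of them in exon 1. It held 3, 1 and 1 sites in control, 7, 4 and 2 after OGD/R 1.5 h, and 1, 2 and 3 after OGD/R 3 h, and the groups overlapped. Srsf5 held 2 in every control and every OGD/R 3 h library and 2, 0 and 0 after OGD/R 1.5 h. Hnrnph3 held 5, 3 and 0 in control, 2, 1 and 1 after OGD/R 1.5 h, and 2, 2 and 0 after OGD/R 3 h, a spread within control as wide as any between groups. Hnrnpl held 1 to 3 sites in every library.

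In the smaller families single genes led. Sf3b2 had 0, 1 and 0 sites in control, 2, 1 and 2 after OGD/R 1.5 h, and 0, 1 and 0 after OGD/R 3 h. Prpf38b had 1, 2 and 1, then 2, 2 and 3, then 0, 2 and 1. Snrpn, an imprinted gene of the Sm family that is strongly used in brain, had 2, 0 and 1 in control and none in the deprived groups, and both of its sites also lie in exons of Snurf.

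The number of genes that separated the groups was set beside that over all protein-coding genes with a site in either group. Against control, every OGD/R 3 h library held more sites in 6 of 37 members (16.2%) and fewer in 6 (16.2%), where all genes gave 18.6% and 18.7%. Both shares were near those of all genes. OGD/R 1.5 h held more in 8 of 43 (18.6%) and fewer in 3 (6.98%), where all genes gave 8.55% and 15.1%. OGD/R 3 h held more than OGD/R 1.5 h in 7 of 46 (15.2%), where all genes gave 19.9%, and fewer in 8 (17.4%), where all genes gave 13.4%. Only Hnrnpu was higher in both deprived groups than in control and higher again in OGD/R 3 h than in OGD/R 1.5 h.

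The median difference in sites per library between OGD/R 1.5 h and control was 0.33 over the 43 members and -0.17 over all genes. For OGD/R 3 h against control it was 0 over 37 members, of which 15 had more and 16 fewer, and -0.33 over all genes. The higher total in OGD/R 3 h thus came with no shift in the median member.

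Along the mRNAs of the 49 genes with a site, called cytosines were densest around the start codon, at 32.0 per 1000 cytosines over the 9 libraries. The 5′ untranslated region had 19.7, the coding sequence 16.9, the stop codon region 4.77 and the 3′ untranslated region 1.03. All mRNAs with a site had 29.7, 11.4, 7.96, 8.08 and 1.60 in the same order. The set was close to all mRNAs around the start codon and denser in the coding sequence, and the 4 leading genes supplied most of the coding sites. They had 77.8% of their sites in the coding sequence and 11.5% around the start codon, and the 45 other genes had 50.8% and 29.3%. Over all mRNAs these shares were 55.6% and 24.1%. The 45 other genes thus lay below all mRNAs in the coding sequence and above them around the start codon, opposite to the 4 leading genes.

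The coding sequence held 57.8% ± 1.41 of the set's sites in control, 65.3% ± 3.25 after OGD/R 1.5 h and 66.1% ± 3.71 after OGD/R 3 h (SD, 3 libraries). Both deprived groups were above every control library. For OGD/R 3 h this was seen only in the 4 leading genes, at 65.1% ± 2.83 in control and 76.0% ± 1.91 after OGD/R 3 h. In the other members the share was 44.2% ± 2.78 and 44.0% ± 10.3, with overlap. After OGD/R 1.5 h it was above control in both parts, at 76.1% ± 3.61 and 51.2% ± 2.16. Over all mRNAs the share was 50.4% ± 2.48, 57.5% ± 2.05 and 46.6% ± 2.84, so that OGD/R 3 h and control overlapped there. The start codon region held 22.1% ± 2.07, 17.4% ± 2.38 and 19.2% ± 3.21 of the set's sites, and OGD/R 3 h overlapped with control. Counted within 50 nt of the codon instead of 100 nt, it held 3.17% ± 0.749, 6.75% ± 0.883 and 6.41% ± 1.50, and both deprived groups were then above control. Most control sites of Hnrnpab in the start codon region lie between these distances, such as those of the stretch shown above, which runs from 87 to 58 nt before the start codon.

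**Figure D4:**
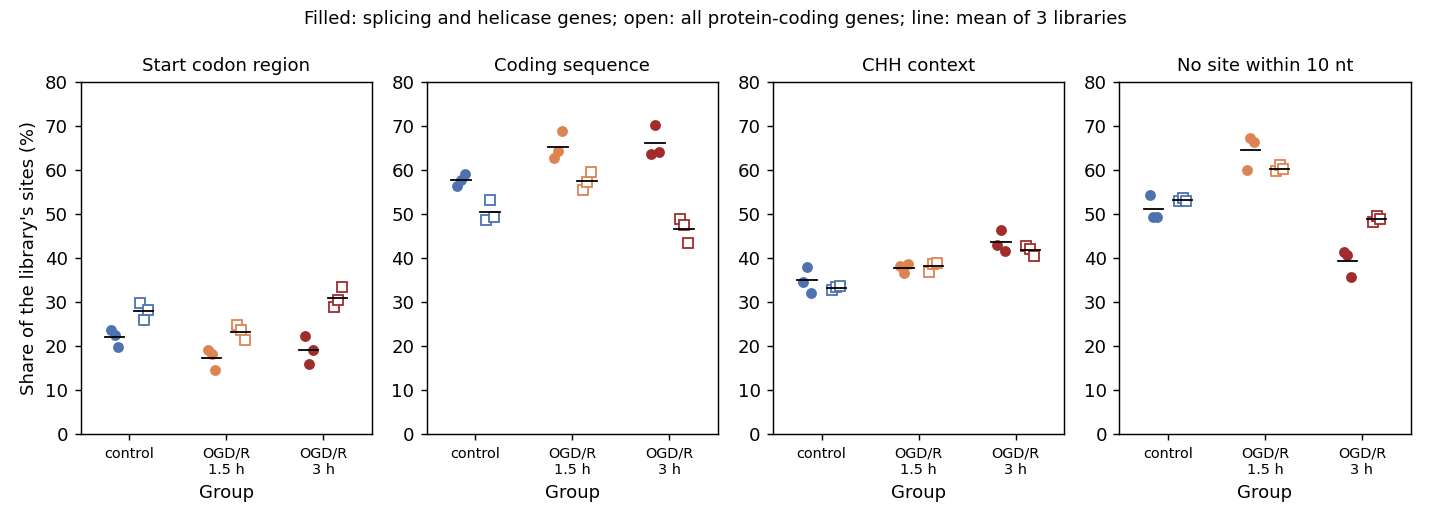
Share of sites per library, in percent, that lie in the start codon region, in the coding sequence, in CHH context or with no other called site within 10 nt, by group, for splicing and helicase genes (filled circles) and for all protein-coding genes (open squares); lines give the mean of 3 libraries. The set as a whole lies below all genes in the start codon region and above them in the coding sequence in every group. Outside the leading genes, the members had a mean start codon share of 35.8% in control, against 28.0% for all genes. Their mean coding share there was 44.2%, against 50.4%. After OGD/R 1.5 h these shares were 31.9% against 23.3% and 51.2% against 57.5%. After OGD/R 3 h they were 29.9% against 31.1% and 44.0% against 46.6%.

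By sequence context, where H is any base but G, 27.0% of the 460 sites were CG, 32.2% CHG and 40.9% CHH. Among all 35975 cytosines of the transcripts, 13.1% were CG, 24.7% CHG and 62.2% CHH. CG made up 27.2% of sites per library in control, 27.1% after OGD/R 1.5 h and 27.2% after OGD/R 3 h. CHH made up 34.7%, 38.1% and 32.1% in the control libraries and 43.7% ± 2.43 after OGD/R 3 h (SD, 3 libraries), which was above every control library. CHG was lower, at 29.1% ± 0.956 against 37.8% ± 2.85. The CHH share was also higher over all mRNAs, at 41.8% ± 1.12 against 33.3% ± 0.503, whereas CG there was lower, at 21.0% against 27.4%.

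Guanine took 35.5% of the 20 bases around the sites and 25.8% around all cytosines of these transcripts. The motif of the methyltransferase NSUN2, read here as GGG at bases 2 to 4 after the site (CNGGG), was found at 8 sites (1.74%) and at 1.9% of the cytosines. Over all mRNAs it was found at 3.27% of sites and 1.98% of cytosines. The 8 sites lay in 8 genes, Hnrnpu, Ddx17, Ddx5, Hnrnpa0, Hnrnph3, Ddx39b, Prpf38b and Sf3b2. CTCCA was found at 3 sites (0.652%) and at 0.650% of the cytosines.

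Sites with no other called site within 10 nt in the same library made up 51.1% ± 2.90 of the set's sites in control, 64.6% ± 3.99 after OGD/R 1.5 h and 39.3% ± 3.05 after OGD/R 3 h (SD, 3 libraries), and the 3 groups did not overlap. The same order held over all mRNAs, at 53.3%, 60.4% and 48.9%. Counting only these isolated sites, OGD/R 3 h and control had nearly equal means, with a log2 ratio of -0.01. Ddx17 and the Ddx family, higher in OGD/R 3 h by all sites, had log2 ratios of -0.08 and -0.38 against control by isolated sites, while Hnrnpu stayed higher at 0.85.

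The median score was 4, 7 and 7 in control, 5.5, 7 and 6 after OGD/R 1.5 h, and 6, 4 and 4.5 after OGD/R 3 h, with overlap throughout. Over all mRNAs it was 9.67 ± 0.577 in control, 7 in each OGD/R 1.5 h library and 12 ± 1 after OGD/R 3 h. In the 4 leading genes it was 5.33 ± 2.08 in control and 3.83 ± 0.764 after OGD/R 3 h, and in the other members 8.17 ± 1.44 and 13.8 ± 8.43. A score of at least 10 was reached by 25.3% to 38.8% of the sites of the 4 genes in OGD/R 3 h libraries and by 45.9% to 57.9% of the other sites.

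Sharing of sites between groups was near that over all protein-coding genes in some measures, and above it for the part of control sites found again in a deprived group. Of the 460 sites, 22 (4.78%) were found in all 3 groups, where all genes gave 3.62%. Sites found in control only numbered 80 (17.4%, against 23.4% over all genes), those after OGD/R 1.5 h only 131 (28.5%, against 24.1%) and those after OGD/R 3 h only 144 (31.3%, against 33.4%). By gene, 18 of the 49 (36.7%) had a site in every group, where all genes with a site gave 31.9%. The unions of control (157 sites) and OGD/R 3 h (218 sites) shared 46, which is 29.3% of the former and 21.1% of the latter, where all genes gave 20.5% and 16.9%. Control and OGD/R 1.5 h (212 sites) shared 53, or 33.8% and 25.0%, where all genes gave 27.2% and 26.3%. Within a group, a pair of libraries had 29.1% to 43.5% of their combined sites in common, and 29.8% to 45.4% over all genes. Of the set, 224 of the 460 sites were called in a single library.

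Other regulators of splicing were read in the same way. Of 13 neuronal splicing regulators, which include Rbfox1, Nova2 and Elavl4, 0 had a site in any library, and of the epithelial regulators Esrp1 and Esrp2 neither had one. Over all protein-coding genes 2607 of 21013 had a site, so lists this short could hold none at that share. Of 29 broadly used regulators outside the set 16 had a site, with 18 to 21 sites per library in control, 17 to 30 after OGD/R 1.5 h and 24 to 34 after OGD/R 3 h. Pcbp1, a binder of poly(C), held most, with 11, 8 and 9 sites in control, 2, 4 and 4 after OGD/R 1.5 h, and 9 in each OGD/R 3 h library. Of 5 genes of the exon junction and of export, Eif4a3 had sites in control and OGD/R 1.5 h and Alyref, an m5C reader in export, in OGD/R 3 h only, with 3, 2 and 2. Of 7 writers, readers and erasers of m5C, Ybx1 and Tet3 had sites.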

How the data were processed

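Per the paper's methods, meRanGh was used by the authors to align the trimmed reads of the bisulfite libraries to mm10, and meRanCall to call sites. The deposited files list sites for each library. The submitters' processing notes name CASAVA 1.8, cutadapt 1.9.3 and STAR. How the mock libraries entered the calls is not given in the sources used here. The deposited score is the methylation call score times 10, without decimals and at most 1000, with no normalization for depth. More reads raise both the score and the number of calls.

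Sites were read with Python 3.11.15. All 25890 fell on a cytosine of their strand in RefSeq GRCm38.p6, the build of the files, whose 37880 curated mRNA transcripts were used. A site was placed in the transcript with the longest coding sequence that contains it, and start and stop codon regions are 100 nt on either side of the codon. Figures were drawn with matplotlib 3.10.9. Reads shared with pseudogenes or paralogs could not be separated. The assignment and the comparison of libraries were tested on simulated data. Members of the set and all lists were chosen with earlier results of these data known. Genes named are those with most sites in each family, the 10 with most sites, the 3 with the largest difference in each direction among those whose libraries do not overlap, those with a site in all 9 libraries, and Srsf1; the other genes named were chosen after their values were seen. Replicates were checked by a chi-square of their coverage per site, in the part used here of a table that the study supplied for control and OGD/R 3 h. OGD/R 1.5 h was not in it and was treated alike. Groups were compared by means, SDs and overlap, with no test. No methylation level or interval could be derived, and the number of sites was compared instead. Alternatives were sites called in at least 2 or all 3 replicates, isolated sites, a score of at least 10, 50 nt around the codon, sites per 1000 mRNA sites and each library left out.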

Additional observations from a re-analysis of the deposited data

Results flagged for a closer look

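Dhx40 and Ddx50 moved in opposite directions in the deprived groups. In each, every OGD/R 1.5 h library was above every control library by 1 site, and every OGD/R 3 h library was below by 1 site (mean differences of 1 and -1). The cytosines called in control were not those called in OGD/R 1.5 h in either gene, so the higher count is not a site added to that of control. By overlap, the OGD/R 3 h libraries, with 0 sites each, were also all below the OGD/R 1.5 h libraries, with 2 each. This difference was described by overlap and was not tested for significance.

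Outside the exons used here, 44 sites lay in introns of 8 of the genes. They numbered 8, 5 and 11 in control, 6, 4 and 3 after OGD/R 1.5 h, and 18, 24 and 17 after OGD/R 3 h (mean 19.7), above the control libraries. Ddx39b supplied 13, 14 and 13 of those in OGD/R 3 h and 1, 0 and 1 in control, and 14 of its 18 intron sites also lie in an exon of another RefSeq gene on the same strand. Sf3b3 supplied 1, 4 and 3 after OGD/R 3 h, and all 6 of its sites lie in such an exon. No site was antisense to a gene of the set.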

How the results depend on the processing

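Over 32 results, 279 of 354 alternatives gave a value within 1 SD of that reported, 67 moved further and 8 reversed a difference without overlap. None of the 75 that moved or reversed left out a library. Leaving out any 1 library, in 192 alternatives, stayed within 1 SD for each result. A mean of 3 libraries can hardly move further than that, so these alternatives say little about robustness. The log2 ratio of sites was then 0.28 to 0.44 for OGD/R 3 h and 0.13 to 0.28 for OGD/R 1.5 h against control, and 0.0907 to 0.21 between the deprived groups. The difference in share was -0.0111 to 0.23 percentage points for OGD/R 3 h against control, below 0 without control replicate 3. It was 0.53 to 0.76 for OGD/R 1.5 h against control and -0.66 to -0.41 between the deprived groups. The log2 ratio of genes with a site was -0.25 to -0.0671 for OGD/R 3 h and 0.18 to 0.37 for OGD/R 1.5 h against control. For OGD/R 3 h against control the start codon share ran from -4.48 to -1.28 points, the CHH share from 7.32 to 10.3 points and the median score from -2.17 to -0.67. Groups that overlapped no longer did so for sites of OGD/R 1.5 h against control without OGD/R 1.5 h replicate 2 (0.28) or control replicate 1 (0.28), and of OGD/R 3 h against OGD/R 1.5 h without OGD/R 3 h replicate 1 (0.18) or OGD/R 1.5 h replicate 3 (0.21). The same held for genes with a site of OGD/R 3 h against control without control replicate 3 (-0.25) and of OGD/R 1.5 h without OGD/R 1.5 h replicate 1 (0.29) or control replicate 2 (0.37). It also held for the start codon share without OGD/R 3 h replicate 1 (-4.48) or control replicate 3 (-4.03), for the median score without control replicate 1 (-2.17), for Hnrnpul2 of OGD/R 3 h against control without OGD/R 3 h replicate 1 (0.62) and for Ddx17 of OGD/R 1.5 h against control without OGD/R 1.5 h replicate 3 (-0.55). Where values moved, the cause was not tested, beyond the counting of fewer sites.

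Sites in the set, OGD/R 3 h against control (log2 ratio 0.37), gave -0.0101 with isolated sites, 0.0608 per 1000 mRNA sites and 0.17 without the 4 leading genes, a choice made after seeing the data. OGD/R 1.5 h against control (0.22) gave -0.0385 with sites in at least 2 replicates, -0.28 with sites in all 3, 0.55 with isolated sites and 0.51 without the 4 genes. OGD/R 3 h against OGD/R 1.5 h (0.16) gave 0.53 with sites in all 3 replicates, -0.56 with isolated sites, -0.285 per 1000 mRNA sites and -0.35 without the 4 genes.

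The share of mRNA sites, OGD/R 3 h against control (0.10 percentage points), gave -0.40 with sites in all 3 replicates and -0.298 with isolated sites, and against OGD/R 1.5 h (-0.54) it gave -1.23 with isolated sites and -0.97 with a score of at least 10. With sites in all 3 replicates, the log2 ratio of genes with a site was 0.21 for OGD/R 3 h (-0.17 as reported) and 0.47 for OGD/R 1.5 h (0.26) against control, the start codon share 2.29 points (-2.87) and the CHH share 3.40 (8.76). The start codon share was 3.23 points higher with 50 nt. The median score, OGD/R 3 h minus control (-1.17), was 1.42 with sites in at least 2 replicates, 3.67 with a score of at least 10 and 5.67 without the 4 genes.

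Among families and genes, added after seeing the data, Hnrnp sites gave -0.16 for OGD/R 1.5 h against control with sites in all 3 replicates, and for OGD/R 3 h against OGD/R 1.5 h -0.53 with isolated sites and -0.23 per 1000 mRNA sites. With isolated sites, Ddx sites gave -0.38 for OGD/R 3 h against control and -0.52 against OGD/R 1.5 h, and Ddx17 gave -0.078 and -0.47. No paired analysis was possible because the comparisons come from no test, and a difference of group means is the same however libraries are paired. The sources used here give no shared origin for libraries of the same number.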
